A study of Homo sapiens with 4 samples.

Results

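The VPS13 circles are the circular RNAs made from VPS13A, VPS13B, VPS13C and VPS13D, the 4 human genes of the VPS13 family. A circle was taken as a member when the list of genes deposited beside it held one of these symbols exactly and the circle was not typed as antisense. By this rule 720 circles with at least 1 count were found among 190152 in the series. VPS13A gave 196 of them, VPS13B 329, VPS13C 124 and VPS13D 71. A further 30 antisense circles with a count that name these genes were left out. The family was chosen by its circle counts in the knockdown libraries against the controls, so every value that sets knockdown against control is given here as a description, with no test of its own.

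VPS13 proteins are long rods with a hydrophobic groove through which phospholipids pass from one membrane to another at contact sites between organelles. VPS13A works at contacts of the endoplasmic reticulum with mitochondria and lipid droplets and is lost in chorea-acanthocytosis. VPS13B sits at the Golgi and is mutated in Cohen syndrome, VPS13C joins the endoplasmic reticulum to late endosomes and lysosomes and is linked to early-onset Parkinson disease, and VPS13D acts at mitochondria and peroxisomes and is mutated in a recessive ataxia. All of these genes are long and have many short exons. A circular RNA forms by back-splicing, when the 3′ end of a later exon (the donor) is joined to the 5′ end of an earlier exon (the acceptor). The positions of donor and acceptor bound the exons a circle can hold. HNRNPL is an RNA-binding protein that recognises CA-rich RNA and regulates splicing.

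The study asked which circular RNAs depend on HNRNPL in radiation-resistant cells. MDA-MB-468, an established triple-negative breast cancer line with amplified EGFR, had been made radioresistant with a total of 50 Gy, and all 4 libraries came from these cells. Both controls carried a control hairpin (shCtrl, genotype labelled WT) and both knockdowns a stable hairpin against HNRNPL (shHNRNPL), with 2 libraries, described as biological replicates, in each group. The labels do not say whether either line was a single clone, and no circle named HNRNPL, so the knockdown rests on the labels. For sequencing on a nanopore instrument, Induro reverse transcriptase was run on total RNA; it can go round a circle several times.

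The libraries held 472428 and 556578 counts in controls 1 and 2, and 282737 and 390547 in knockdowns 1 and 2. A count of 0 allows up to 3 counts, or between 0.539 and 1.06 per 100000 counts of a library. These floors and the counting intervals below cover counting error only, since amplified copies carry no molecular identifiers. Control 1 stood apart from the other libraries: exon circles held 70.9% of its counts, against 84.9% to 85.7% in the others, and intron circles 19.7%, against 9.93% to 10.6%. Of 8 epithelial marker genes, EPCAM, CDH1, EGFR and KRT5 had any circular counts, which gives no level of their linear RNA. Values below follow the order control 1, control 2, knockdown 1, knockdown 2, as counts per 100000 counts of the library unless raw counts are named, with means ± SD over the 2 libraries of a group. Exon numbers and lengths of an exon circle are those of the first internal isoform (set of exons) listed for it. Its counts cover every isoform with the same back-splice.

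The family as a whole took a larger share of the circular RNA in the knockdown libraries. VPS13 circles held 337, 400, 531 and 565 per 100000, from 1590, 2227, 1502 and 2208 raw counts. Both knockdown libraries were above both controls. The mean was 368 ± 44.9 in the controls and 548 ± 24.1 in the knockdowns, a ratio of 1.49, which was 1.37 without control 1. Exon circles held 83.3% of the VPS13 counts in control 1 and 87.9% to 88.8% in the others, so the low exon share of control 1 was seen in this family too. The part of that library difference in the ratio was not tested. With only the exon circles of the family counted, the ratio was 1.52. That value is still per 100000 counts of all circle types, so the low exon share of control 1 enters it as well.

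The 4 genes did not share one pattern. VPS13C stood furthest apart between the groups, with 30.1, 30.7, 78.2 and 100.1 per 100000. Its means were 30.4 ± 0.471 and 89.1 ± 15.5, a ratio of 2.93. VPS13A had 80.4, 106, 181 and 186 per 100000, with means of 93.0 ± 17.8 and 183 ± 3.22 and a ratio of 1.97. In both genes the groups lay apart by more than the spread within either.

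VPS13B, the most abundant of the family in every library, had 197, 242, 254 and 265 per 100000. Its groups did not overlap, but control 2 and knockdown 1 lay close together, and the means of 219 ± 32.2 and 259 ± 7.46 gave a ratio of 1.18. VPS13D went the other way, with 29.4, 21.6, 18.0 and 15.1 per 100000, means of 25.5 ± 5.56 and 16.6 ± 2.07 and a ratio of 0.650. Both knockdowns thus lay above both controls in 3 of the 4 genes and below both in 1, beside 15.3% and 36.7% of all host genes tested.

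Levels between genes were also compared per length. Counts are reads per back-splice position, and whether they grow with circle length was not tested. Unscaled, VPS13C at 30.4 ± 0.471 lay above VPS13D at 25.5 ± 5.56 in the controls, so the scaling reversed this pair. Scaled to 1 kb of circle length, the order in the controls was VPS13B at 187 ± 27.3, VPS13A at 41.5 ± 7.73, VPS13D at 21.9 ± 5.87 and VPS13C at 17.5 ± 1.73, where the last pair overlapped. In the knockdowns the order was VPS13B at 239 ± 7.11, VPS13A at 125 ± 2.53, VPS13C at 88.4 ± 20.3 and VPS13D at 12.5 ± 1.53, with no overlap between neighbours.

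**Figure D1:**
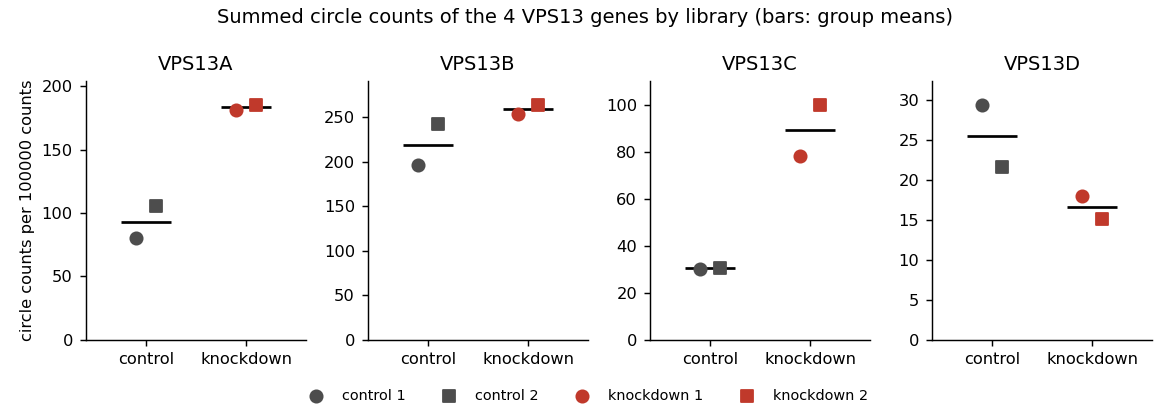
Circle counts per 100000 counts of the library (vertical axis, from 0, on a scale of its own for each gene) for each VPS13 gene in the 2 control and 2 knockdown libraries, with bars at the group means. Both knockdowns lie above both controls for VPS13A, VPS13B and VPS13C and below both for VPS13D.

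In the fit over all host genes (edgeR's quasi-likelihood test on summed counts, 8388 genes with at least 10 counts), 37 genes were called at an adjusted p under 0.05 after Benjamini-Hochberg adjustment, 0.441% of those tested, and none of the 4 VPS13 genes was among them. The fitted log2 fold changes, knockdown over control, were 1.86 ± 0.37 (SE) for VPS13C, 1.27 ± 0.41 for VPS13A, 0.53 ± 0.42 for VPS13B and -0.30 ± 0.33 for VPS13D. The median over all host genes tested was -0.26, so VPS13D lay near it. Scaling by library size in place of TMM moved that median to -0.58 and gave 1.55, 0.98, 0.24 and -0.62 for the 4 genes in the same order. Without control 1 the values were 1.78, 1.03, 0.34 and -0.16.

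VPS13A had a single dominant circle, and that circle did not follow its gene. It joined the donor of chr9:77337255-77371149 back to its acceptor and held 21 exons in 2986 nt (RefSeq span of the gene chr9:77177534-77421537 of GRCh38.p14, plus strand). Its raw counts were 210, 354, 124 and 180, or 44.5, 63.6, 43.9 and 46.1 per 100000. The groups overlapped, with means of 54.0 ± 13.5 and 45.0 ± 1.58 and a log2 fold change of -0.30 ± 0.30.

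All other VPS13A circles together gave 36.0, 42.0, 137 and 140 per 100000, a ratio of 3.55. The share of the gene held by the dominant circle was therefore 55.3%, 60.2%, 24.2% and 24.8% by library. The difference in the gene's sum lay in the other circles. Each gene was also divided from its 5′ end into 4 stretches of equal length, numbered 1 to 4, and a circle was placed by its acceptor. Circles of stretch 1 of VPS13A had 12.9, 11.3, 68.3 and 61.7 per 100000, a ratio of 5.36, and those of stretch 2 had 12.7, 17.1, 33.2 and 42.0, a ratio of 2.53. In stretch 3, which holds the dominant circle, the ratio was 1.20.

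The second VPS13A circle by counts, chr9:77238002-77260224 with 6 exons in 832 nt, was almost without counts in the controls. Its raw counts were 1, 1, 46 and 57. The pooled ratio was 78.7, with an exact 95% counting interval of 21.2 to 659, and the fitted log2 fold change was 6.07 ± 0.55. Its rank came from its knockdown counts, so these values are a description and no support for a difference. The next, chr9:77273280-77295846 with 10 exons in 1385 nt, had 23, 19, 6 and 15 raw counts, or 4.87, 3.41, 2.12 and 3.84 per 100000. Its groups overlapped, and its log2 fold change was -0.53 ± 0.57.

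Circles named from here on beyond the 3 most abundant of each gene were chosen after their values were seen. Several VPS13A circles shared a splice site with the second one. Its acceptor at chr9:77238002 was used by 10 circles, with 12, 8, 77 and 97 raw counts, or 1.99 ± 0.78 and 26.0 ± 1.69 per 100000. From that acceptor the circle closing at 77260224 had the 4 values above, the circle closing at 77283650 (14 exons) had 0, 0, 15 and 19 raw counts, and the longer one closing at 77295846 (16 exons) had 6, 6, 3 and 3. The shorter pair were high in the knockdowns alone, while the longest had few counts in every library, at 1.27, 1.08, 1.06 and 0.768 per 100000.

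The donors of VPS13A differed in the same way. The donor at 77283650 had 2, 1, 34 and 67 raw counts over 6 circles, and the donor at 77260224 had 8, 3, 55 and 71 over 10. The next donor downstream among the 4 most used, at 77295846, had 50, 44, 23 and 28 raw counts over 11 circles, or 9.24 ± 1.89 and 7.65 ± 0.683 per 100000. The dominant circle's donor at 77371149 had 57.2 ± 13.9 and 47.7 ± 0.957 per 100000. Higher knockdown values were thus not seen at every site of the gene, but they were not confined to the sites named. Among the 8 most used donors, only those at 77371149 and 77295846 had a lower mean in the knockdowns. Among the 8 most used acceptors this held only at 77336828, with 3.46 ± 1.09 and 2.87 ± 0.440 per 100000.

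VPS13C differed most in stretch 1 of the gene (RefSeq span chr15:61852389-62060447, minus strand). Circles placed there had 13.5, 14.9, 59.1 and 80.4 per 100000, means of 14.2 ± 0.966 and 69.7 ± 15.1 and a ratio of 4.90. The ratio was 1.38 in stretch 2 and 0.992 in stretch 3. Stretch 1 held 45.1%, 48.5%, 75.6% and 80.3% of the gene's counts by library.

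The most abundant VPS13C circle, chr15:62007308-62013992 with 6 exons in 606 nt, had 2, 4, 55 and 117 raw counts. Both controls were at or near the floor and both knockdowns far above it. The means were 0.571 ± 0.209 and 24.7 ± 7.43 per 100000, the pooled ratio was 43.8 with an exact 95% counting interval of 19.7 to 121, and the log2 fold change was 5.32 ± 0.52. It held 1.41%, 2.34%, 24.9% and 29.9% of the gene's counts by library. As with the second VPS13A circle, its rank came from its knockdown counts, so these values are no support for a difference.

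The second, chr15:61991000-62035052 with 13 exons in 1262 nt, had 9, 48, 32 and 65 raw counts, or 1.91, 8.62, 11.3 and 16.6 per 100000. Its 2 controls differed from each other by more than control 2 differed from knockdown 1, and the log2 fold change of 1.42 ± 0.62 was 0.89 without control 1 and 2.73 without control 2. Next came chr15:62000564-62035052, which begins at the same acceptor but closes at an earlier donor, with 11 exons in 1037 nt. Its raw counts were 0, 0, 26 and 34, or 8.95 ± 0.347 per 100000 in the knockdowns, at least 15.2-fold higher than the mean control floor of 3 counts per library. The same limit holds for this circle, which ranked through its knockdown counts alone.

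The 2 circles from one acceptor of VPS13C thus had unlike values in control 2, at 48 and 0 raw counts. The donor at 62000564 had 1, 0, 46 and 53 raw counts over 8 circles and the donor at 62007308 had 4, 4, 65 and 143 over 5. The donor at 61991000 had 10, 56, 38 and 91. By contrast, the next circle by counts, chr15:61936597-61981478 with 27 exons in 3726 nt, had 17, 14, 13 and 13 raw counts, and its groups overlapped. It was the most abundant VPS13C circle of control 1.

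**Figure D2:**
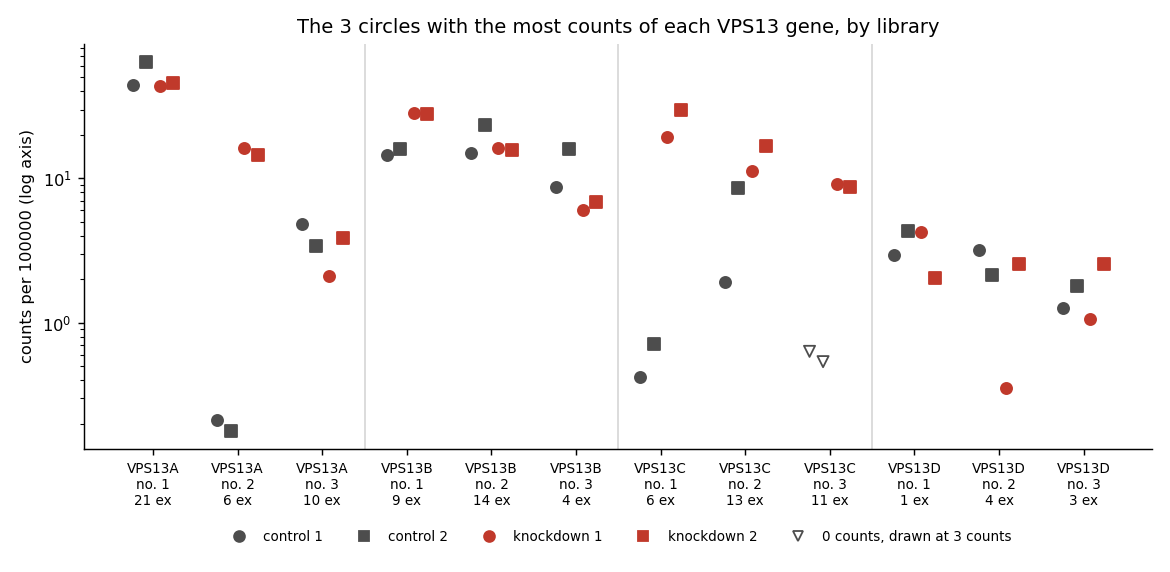
Counts per 100000 (log axis) of the 3 most abundant circles of each VPS13 gene in the 4 libraries, with a count of 0 drawn at the floor of 3 counts. The gap between the groups is wide for the second VPS13A circle and for the VPS13C circles of 6 and 11 exons, while the dominant VPS13A circle and the 3 VPS13D circles overlap between the groups.

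VPS13B circles differed in sign between sites of the gene, which its sum does not show. The gene spans chr8:99013274-99877580 in RefSeq, 864307 nt on the plus strand, the longest of the family. Circles of stretch 1 had 94.0, 133, 98.3 and 97.8 per 100000, which overlap, with means of 113 ± 27.6 and 98.1 ± 0.363. Signs were mixed within stretch 1. Of its 41 circles with at least 10 counts, both knockdowns lay above both controls in 11 and below both in 15. Over all such circles in the series, 23.2% lay above and 22.9% below. Those of stretch 2 had 66.5, 63.1, 115 and 117, means of 64.8 ± 2.41 and 116 ± 1.39 and a ratio of 1.80.

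Stretch 2 was dominated by the acceptor at chr8:99431537, used by 17 circles that held 26.1% of the gene's counts. Its raw counts were 230, 250, 221 and 350, or 46.8 ± 2.66 and 83.9 ± 8.10 per 100000, with both knockdowns above both controls. The most abundant VPS13B circle uses it: chr8:99431537-99521010, with 9 exons in 1663 nt, had 69, 89, 80 and 109 raw counts. Its means were 15.3 ± 0.979 and 28.1 ± 0.272 per 100000, with no overlap and a log2 fold change of 0.82 ± 0.33.

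The next 3 acceptors by counts, at 99096312, 99102953 and 99111098, lie in stretch 1. Their 30 circles had 279, 470, 125 and 178 raw counts, or 71.8 ± 18.0 and 44.9 ± 0.966 per 100000, a ratio of 0.626 with both knockdowns below both controls. Of these, chr8:99096312-99193057 with 14 exons in 2224 nt had 71, 130, 46 and 61 raw counts and overlapped between the groups, with 19.2 ± 5.89 and 15.9 ± 0.460 per 100000 and a log2 fold change of -0.30 ± 0.34. The shorter chr8:99102953-99121445 with 4 exons in 794 nt had 41, 89, 17 and 27 raw counts, or 8.68, 16.0, 6.01 and 6.91 per 100000. Its groups did not overlap, with a log2 fold change of -0.95 ± 0.40. The donor it closes at, 99121445, had 129, 224, 43 and 65 raw counts over 8 circles, or 33.8 ± 9.15 and 15.9 ± 1.01 per 100000.

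The same VPS13B circles can be split by the genes named, which regroups counts given above and is no separate support. VPS13B was the only member with many circles that also named another gene: 140 of its 329 circles, with 50.2% of its counts. The 68 circles that also named ENSG00000253532 all had their acceptor within the first 276 kb of VPS13B. They had 370, 648, 156 and 231 raw counts, or 97.4 ± 26.9 and 57.2 ± 2.81 per 100000, a ratio of 0.587. The other co-named sets had higher means in the knockdowns, with ratios of 1.51 for the 59 circles naming Y_RNA and 2.11 for the 16 naming ENSG00000235683. The 189 circles that named VPS13B alone had 434, 522, 445 and 603 raw counts, or 92.8 ± 1.36 and 156 ± 2.12 per 100000, a ratio of 1.68. With a host sum over circles of 1 gene only, the log2 fold change of VPS13B was 1.05 in place of 0.53. The assignment of the shared reads to one or the other gene is uncertain.

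VPS13D had the fewest circles and the fewest counts, and none of its leading circles separated the groups. The most abundant, chr1:12275825-12278038, is a single long exon of 2214 nt, with 14, 24, 12 and 8 raw counts. It was followed by chr1:12318072-12322746 (4 exons, 767 nt), with 15, 12, 1 and 10, and by chr1:12299202-12308641 (3 exons, 617 nt), with 6, 10, 3 and 10. All 3 overlapped between the groups, with log2 fold changes of -0.28 ± 0.55, -0.86 ± 0.88 and 0.23 ± 0.72.

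The lower sum of VPS13D lay mostly in stretch 2, with 15.7, 9.70, 6.37 and 5.63 per 100000 and a ratio of 0.473. Stretch 1 had 10.4, 10.2, 11.7 and 9.22, a ratio of 1.01. The RefSeq span of the gene is chr1:12230030-12512047, plus strand. The most used acceptor, at 12299202, joined 11 circles with 23.8% of the gene's counts, at 4.67 ± 1.78 and 6.13 ± 0.337 per 100000.

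**Figure D3:**
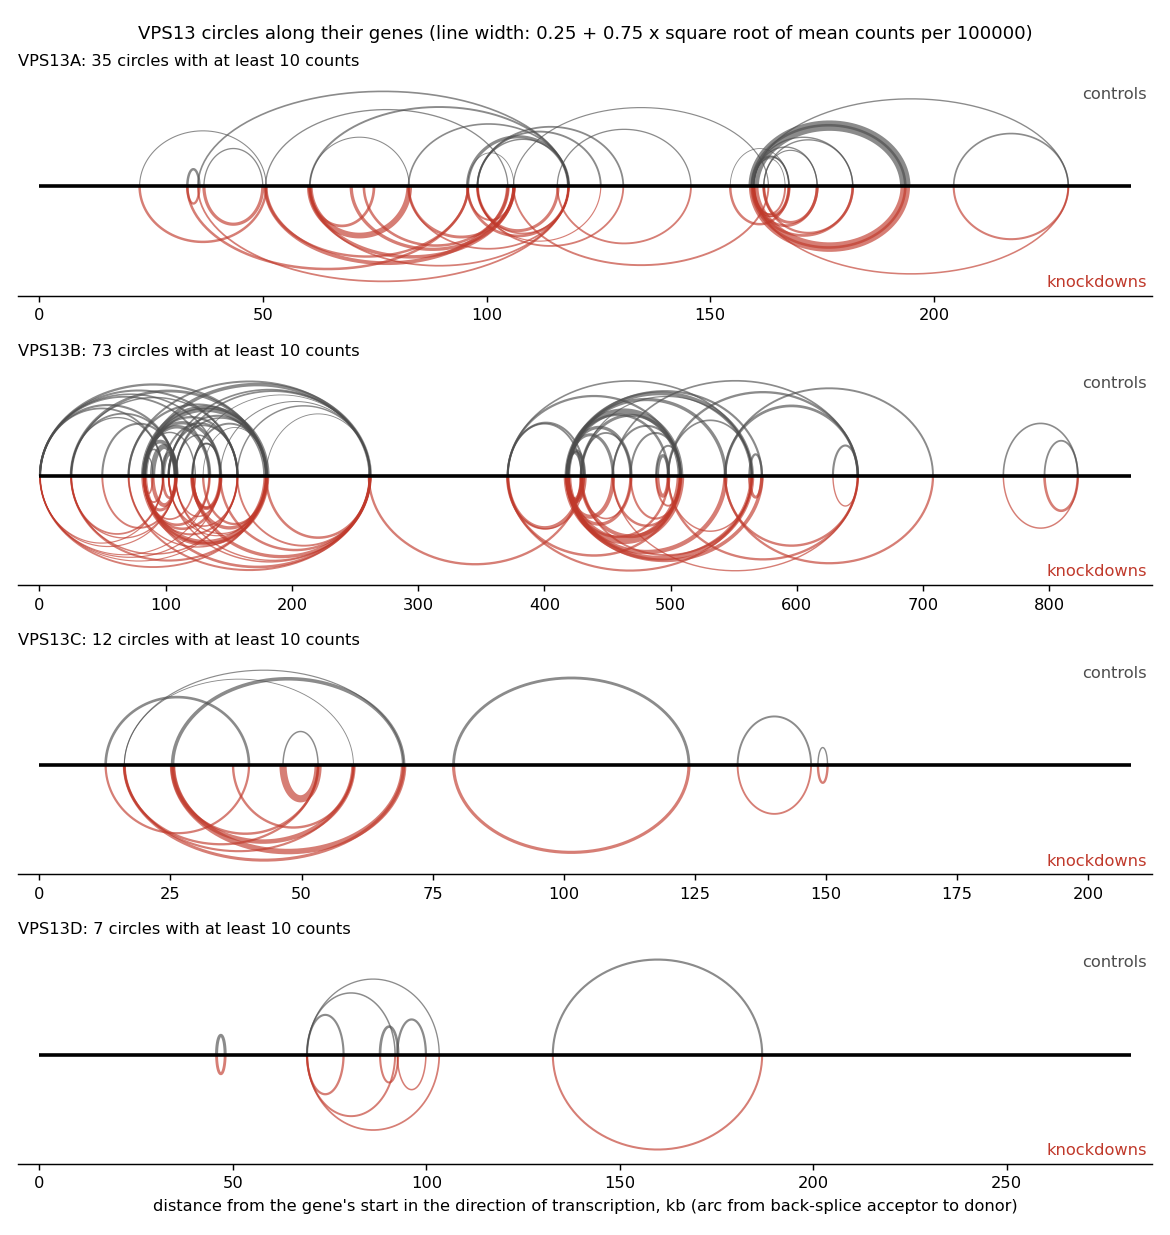
Each circle with at least 10 counts drawn as an arc from its acceptor to its donor, against distance from the gene's start in kb in the direction of transcription, above the line for the controls and below it for the knockdowns, with the line width growing with the square root of the group's mean counts per 100000. The wide arc of the dominant VPS13A circle is seen on both sides, while arcs below the line alone, with 0 counts in both controls, lie mostly in the earlier part of VPS13A and early in VPS13C.

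Single circles were sparse. Of the 720 circles, 127 had at least 10 counts over the libraries and entered the fit over all circles: 35 of VPS13A, 73 of VPS13B, 12 of VPS13C and 7 of VPS13D, with 77.0%, 78.9%, 65.8% and 52.8% of their gene's counts. In that fit (edgeR's quasi-likelihood test, 21576 circles), 0 circles of any gene were called at an adjusted p under 0.05, 0% of those tested, against 2005 higher (9.29%) and 920 lower (4.26%) at an unadjusted p under 0.05. DESeq2 on the same circles called 18 of the 127 VPS13 circles, beside 1052 (4.88%) of all; since the family was chosen on this contrast, nothing is read from its count. The median log2 fold change of the tested circles was 2.58 for VPS13A, 3.53 for VPS13C, 0.03 for VPS13B and -0.25 for VPS13D, beside -0.41 over all circles tested. A circle with most of its counts in one group passed the count minimum through that group and had to differ, so these medians are no support for a difference.

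Both knockdowns lay above both controls in 59 of the 127 tested circles and below both in 19, beside 23.2% and 22.9% of all circles tested. By gene, 23 circles of VPS13A lay above and 2 below, 26 and 17 of VPS13B, 9 and 0 of VPS13C, and 1 and 0 of VPS13D. The single VPS13D circle, chr1:12299202-12333366 with 14 exons, had 3, 1, 3 and 3 raw counts. The same limit of the count minimum holds here, and nothing is read from these counts.

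Over all 720 circles with no count minimum, 102 (14.2%) were found in both knockdowns and neither control, and 32 (4.44%) in both controls and neither knockdown. Over all non-antisense circles the shares were 9.57% and 5.42%. VPS13A had 43 and 2 such circles, VPS13B 34 and 18, VPS13C 23 and 6, and VPS13D 2 and 6. Most members were seen rarely: 310 of the 720 occurred in 1 library and 108 in all 4.

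The number of different circles depended on depth. As found, the libraries held 356, 336, 347 and 399 VPS13 circles, and the groups overlapped. Thinned to 282737 counts each, they held 283.2, 263.1, 347 and 353.4, with means of 273 ± 14.2 and 350 ± 4.53. Both knockdowns were then above both controls. Thinning equalised the counts of all circles and not those of VPS13, whose share was larger in the knockdowns. A larger share alone can give more different circles. These numbers, and those by gene below, are therefore no support for a difference.

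By gene at equal depth, VPS13A had 47.2, 57.6, 112 and 114.3 different circles, VPS13C 43.2, 32.3, 56 and 52.2, and VPS13B 155.6, 146.8, 160 and 170.1. VPS13D had 37.2, 26.4, 19 and 16.8. The evenness of use is given by the effective number of circles, 1 over the sum of squared shares of the gene's counts, which falls when few circles hold most counts. It was 3.18, 2.73, 13.3 and 13.0 for VPS13A, where the dominant circle had a lower share in the knockdowns. For VPS13C it was 21.5, 9.85, 9.42 and 7.49, where control 1 alone stood apart. In control 2 the largest share of VPS13C, 28.1%, belonged to chr15:61991000-62035052. VPS13B stayed between 34.8 and 40.6.

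**Figure D4:**
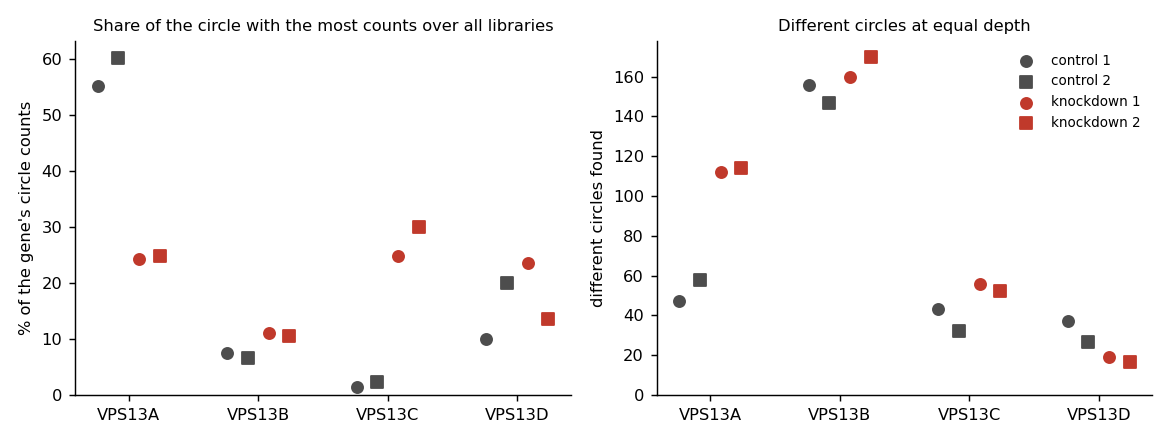
Share of each gene's counts held by its most abundant circle, in percent (left), and number of different circles at equal depth, thinned to 282737 counts with the mean of 10 draws (right), for the 4 libraries. In VPS13A the share is lower and the number higher in both knockdowns, in VPS13C both are higher, and in VPS13D the number is lower while the shares overlap. Depth is equal over all circles of a library, not over those of each gene.

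As a set, the exon circles of the family were longer and held more exons than all exon circles. The choice of members did not use these features, but weighting by counts draws on the counts it used. Of the 720, 520 were exon circles: 170 of VPS13A, 194 of VPS13B, 98 of VPS13C and 58 of VPS13D. Weighted by counts, their median length was 1663 nt and their median number of exons 10, beside 1255 nt and 6 exons over all exon circles. The weighted medians were 2831 nt and 20 exons for VPS13A and 1618 nt and 9 for VPS13B. For VPS13C they were 1262 nt and 11, near all exon circles in length, and for VPS13D 1882 nt and 4, below them in exons. Unweighted, the family had medians of 1597.5 nt and 9.5 exons, beside 1248 nt and 6 over all exon circles. By gene these were 1892 nt and 12.5 for VPS13A, 1324 nt and 7 for VPS13B, 1710 nt and 12 for VPS13C, and 1864 nt and 9.5 for VPS13D.

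The largest circles held 49 exons in VPS13A, 44 in VPS13C, 40 in VPS13D and 21 in VPS13B. Single-exon circles were rare, with 0, 6, 3 and 2 in the same order. The plain AG-GT splice motif, with no shift, was listed for 81.9% of the VPS13 exon circles and 96.3% of their counts, beside 54.9% and 80.4% over all exon circles. More than 1 internal isoform was listed for 15.2% of them, beside 13.4% over all. The dominant VPS13A circle, for one, also lists an isoform of 6 exons in 1071 nt. Counts were not split between isoforms, so size classes and exon counts rest on the first one listed.

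In the family's sum, circles of middle size differed most between the groups. VPS13 circles of 6 to 11 exons had 89.1 ± 16.2 per 100000 in the controls and 210 ± 7.96 in the knockdowns. Those of 12 or more exons had 145 ± 28.8 and 180 ± 7.36, and those of 1 to 5 exons 83.2 ± 8.11 and 92.4 ± 6.17. By gene, the means of the middle class were 12.7 and 66.3 for VPS13A, 68.7 and 97.6 for VPS13B, 4.78 and 44.0 for VPS13C, and 2.97 and 1.88 for VPS13D, so VPS13D did not follow the sum. In VPS13B the circles of 12 or more exons went the other way, with means of 54.2 in the controls and 43.7 in the knockdowns. Over the family, the share of exon-circle counts in the middle class was 27.7%, 28.3%, 43.7% and 43.3%. The class holds the VPS13A circle of 6 exons and the VPS13C circles of 6 and 11 exons named above. It thus regroups counts of the contrast the family was chosen on, and no share over all exon circles was set beside it. Nothing is read from these values.

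Intron circles were most frequent in VPS13B, which had 135 with 17.3% of its counts. VPS13A and VPS13C each had 26, with 5.49% and 12.6%, and VPS13D 13 with 7.59%. In VPS13C they took 25.4%, 17.5%, 8.60% and 8.18% of the counts by library, high in both controls. The antisense circles left out by the rule had 56, 14, 5 and 21 raw counts, most of them in control 1.

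Counting every exon circle for each exon of its first listed isoform gives an account of which exons were carried in circles. Of overlapping exons the one with more counts was kept, and exons with at least 20 counts numbered 70 in VPS13A, 56 in VPS13B, 78 in VPS13C and 41 in VPS13D. Exons of one circle share its counts, so they are not independent of each other. Both knockdowns lay above both controls for 50 exons of VPS13A, 27 of VPS13B, 24 of VPS13C and 1 of VPS13D, and below both for 0, 12, 11 and 5. Over the 38267 such exons of all exon circles in the series, 21.9% lay above and 33.6% below. The family was chosen on the same contrast, so nothing is read from its counts.

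In VPS13A the ratio of means was highest, at 8.87, for the exon at chr9:77250097-77250229, with 6.99, 6.47, 61.2 and 58.1 per 100000. It lies within the second most abundant circle. The most included exon, chr9:77340178-77340282, lies within the dominant one and had 49.3, 72.6, 77.8 and 79.1. The last exon of the dominant circle, chr9:77371026-77371149, had 45.3, 65.4, 44.6 and 47.6, where the groups overlapped.

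In VPS13C the exons between 62013992 and 62007308 formed a plateau. The exon chr15:62010472-62010599, with the gene's highest ratio of 7.70, had 5.72, 10.8, 52.7 and 74.3 per 100000. Further along, chr15:61984857-61984999 had 3.81, 2.34, 4.60 and 4.35, and chr15:61981342-61981478 had means of 6.11 and 10.2. The large gap between the groups ended within that distance.

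VPS13B had a different most included exon in each group. In the controls it was chr8:99121177-99121445, with 73.5, 113, 52.0 and 54.0 per 100000, and in the knockdowns chr8:99442401-99442635, with 48.3, 51.6, 89.1 and 91.9. For the first the controls were the higher group and for the second the knockdowns, with no overlap in either. In VPS13D the exon chr1:12322536-12322746 had 13.3, 6.29, 5.31 and 4.86, and control 1 alone was high.

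**Figure D5:**
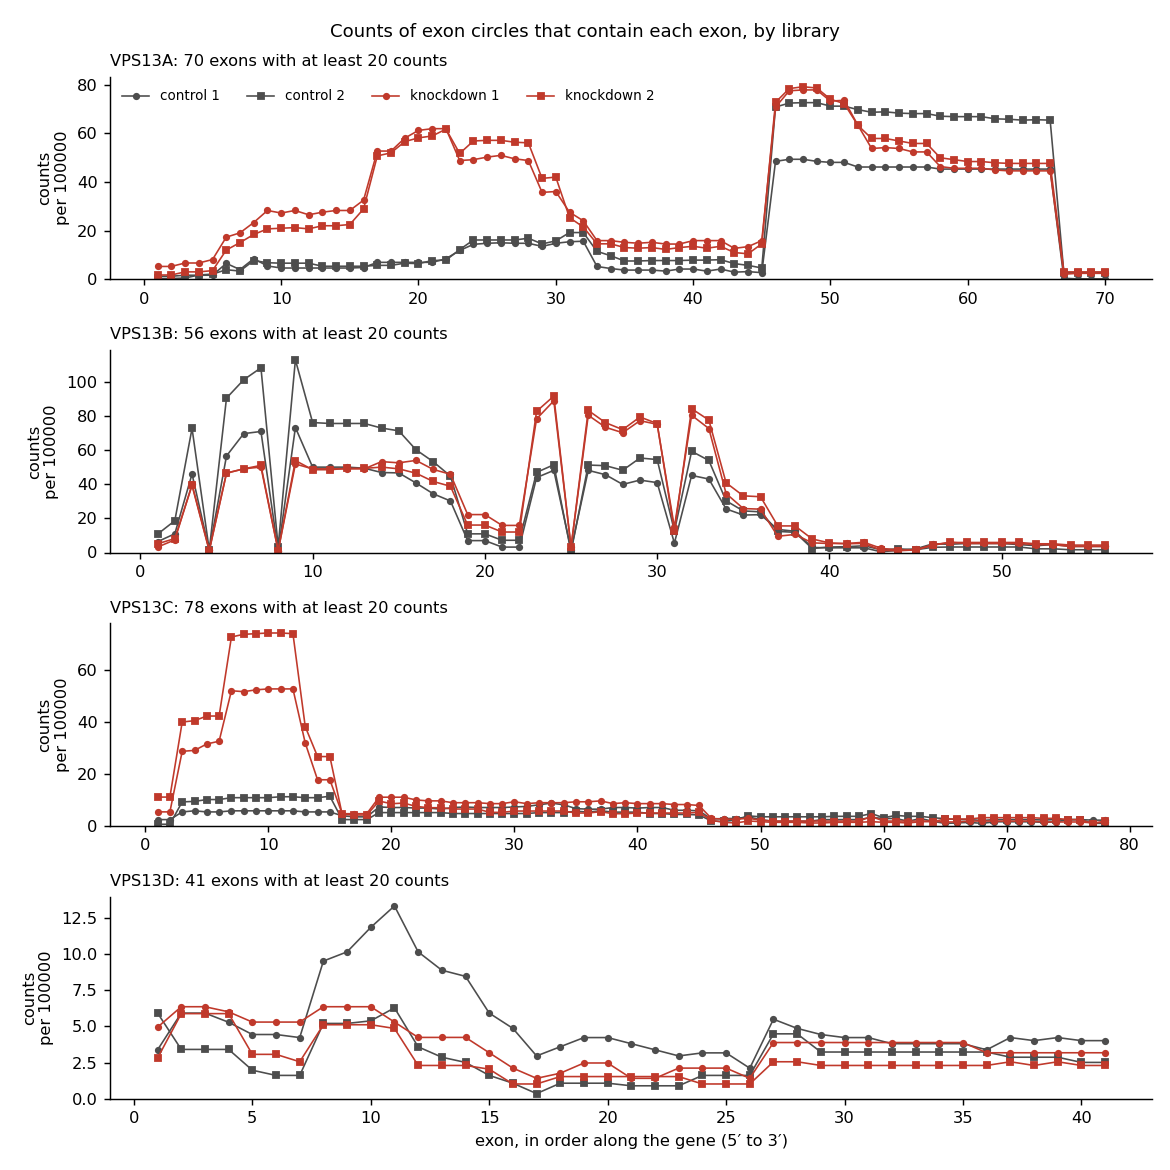
Counts per 100000 of the exon circles that hold each exon (vertical axis), for exons with at least 20 counts in order from 5′ to 3′ (horizontal axis), by gene and library. The knockdown lines lie above the control lines over much of VPS13A and a plateau early in VPS13C, cross them in VPS13B, where single low points are seldom used exons, and overlap them over much of VPS13D.

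Among other genes of lipid transfer, none was called. Of 45 symbols of lipid transfer proteins at membrane contacts, 28 had at least 10 counts, with a median log2 fold change of -0.32, 0 called higher and 0 lower by edgeR, beside the median of -0.26 and 0.441% called over all host genes. At an unadjusted p under 0.05, 1 of the 28 was higher and 1 lower, beside 7.53% and 6.18% of all host genes. BLTP1, which like VPS13 is a bridge-like lipid transfer protein, had 19.3, 26.4, 33.2 and 27.9 per 100000, a narrow gap, and a log2 fold change of 0.70 ± 0.37. BLTP3B, also bridge-like and named after its values were seen, had 3.81, 10.2, 25.5 and 24.8 per 100000 and 2.08 ± 0.52. Its groups did not overlap, but it was not called, with an adjusted p of 0.162 by edgeR. ESYT2, a tether of the endoplasmic reticulum to the plasma membrane, had 33.4, 33.6, 16.6 and 18.2 and -0.64 ± 0.33, and OSBPL9, an oxysterol-binding protein relative, had 25.3 ± 5.26 and 20.2 ± 2.90 and -0.00 ± 0.32.

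Partners of VPS13 proteins and scramblases, which move lipids between the leaflets of a membrane, numbered 29 symbols with 19 tested. Their median log2 fold change was -0.20 and 0 were called in either direction, beside -0.26 and 0.441% over all host genes. VAPA, the endoplasmic reticulum protein that binds VPS13A and VPS13C, had 47.6, 43.1, 56.9 and 66.6 per 100000 and 0.76 ± 0.34. VMP1, a scramblase, had 77.0, 119, 41.4 and 39.9 and -0.99 ± 0.41, and SNX5, an endosomal sorting nexin, had 41.3, 42.4, 18.7 and 21.0 and -0.77 ± 0.33. The groups of these 3 did not overlap, VAPA being higher in the knockdowns and the other pair lower. Of the 19 tested, both knockdowns lay above both controls in 4 and below both in 8, beside 15.3% and 36.7% of all host genes.

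Among 31 other VPS-named genes of endosomal and vacuolar sorting complexes, 17 were tested, with a median of 0.30, 1 called higher and 0 lower, beside 0.441% of all host genes. That gene was VPS50, a subunit of the EARP tether, with 3.39, 7.37, 62.6 and 62.5 per 100000. Its log2 fold change was 3.79 ± 0.49 with an adjusted p of 0.0401 by edgeR's quasi-likelihood test with Benjamini-Hochberg adjustment, and it was higher in 2 of 2 knockdowns than in either control. It passed the threshold in 10 of 13 alternatives, with adjusted p from 1.1e-55 to 0.919. The call was lost with edgeR's newer dispersion method, at an adjusted p of 0.0874, and without knockdown 1 or knockdown 2, at 0.632 and 0.919, fits in which no host gene passed. VPS13C, with the largest value of the VPS13 genes, lay below it. The gene lists were chosen with earlier results of these data known. The call of VPS50 is therefore a description and no support for a difference.

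The host genes whose 4 values were most like those of each VPS13 gene were taken from 2882 with at least 100 counts, by Euclidean distance of log2(counts per 100000 + 0.5) after centring on the gene's mean over the 4 libraries. For VPS13A they were CAP2, FER and PIK3C2A, at 0.0398 to 0.0877, beside a median distance of 1.43. For VPS13B they were CPLANE1, NETO2 and KRT8P39, for VPS13D IVNS1ABP, RB1CC1 and PCNX2, and for VPS13C ENSG00000284952, GXYLT1 and SLC33A1, with no gene nearer to VPS13C than 0.128. With 4 libraries such likeness is a description of these values. Within the family VPS13A and VPS13C were nearest each other, at 0.637, and VPS13C and VPS13D farthest apart, at 2.19.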

How the data were processed

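The authors deposited raw counts of reads per circle (back-splice position) and the circle length in nt, with CIRI-long, a caller of circles from long reads, named in every row per the file columns. The submitters' processing notes name GRCh38.p14 and DESeq2 without a role; the caller's version, the base caller and the filters were not given in the sources used here. A deposited table of rescaled counts was not used here. Coordinates are counted as in the deposited table, and gene spans come from RefSeq's GRCh38.p14 table.

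Groups were taken from the sample titles, 2 libraries each. The 4 members and all gene lists were chosen with earlier results of these data known. Counts were scaled per 100000 counts of the library. Host sums count each circle that is not antisense for every gene it names. Circles and host sums with at least 10 counts over the 4 libraries were fitted with edgeR 4.0.16 (glmQLFit, glmQLFTest, TMM, group only, R 4.3.3), with Benjamini-Hochberg adjustment over all features and called at an adjusted p-value under 0.05. The method was tested on simulated host gene sums, with a dispersion common to all genes in each run, and not on single circles. Standard errors derive from the F statistic. A 2 against 2 design cannot reach 0.05 in an exact permutation test, and p-values measure only the spread between these libraries. DESeq2 1.42.0, other scalings and filters, a replicate block, and leaving out each library were tried. Same-numbered libraries were not taken as pairs. Circles are named as the 3 most abundant per gene, list genes as those called or, if none, the 3 with most counts, and like genes as the 3 nearest.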

Additional observations from a re-analysis of the deposited data

How the results depend on the processing

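VPS13A, VPS13B and VPS13C kept a positive and VPS13D a negative log2 fold change under every alternative run, while calls at an adjusted p under 0.05 depended on the setting. The family was chosen on this contrast, so its calls describe the settings and are no support for a difference. VPS13C was called with DESeq2 (1.88, where 2.22% of all host genes were called), with no count minimum (1.80, 2.81%), with at least 5 counts in 2 libraries (1.87, 1.75%) and over exon circles alone (2.05, 1.36%), and VPS13A with DESeq2 (1.28). Leaving out each library in turn gave 1.03 to 1.76 for VPS13A, 0.34 to 0.97 for VPS13B, 1.65 to 2.15 for VPS13C and -0.37 to -0.16 for VPS13D. In these the remaining control or knockdown was assumed to vary like the other group, and calls were made only without control 1 (VPS13A and VPS13C) or control 2 (VPS13A, VPS13B and VPS13C), where 24.8% and 36.1% of all host genes were called. Called VPS13 circles numbered 0, against 18 of 127 with DESeq2 (4.88% of all circles), 8 of 720 with no count minimum (0.248%), 23 of 82 with at least 5 counts in 2 libraries (12.1%), and 0 to 42 with a library left out: 42 of 109 without control 1 (28.2%), 40 of 92 without control 2 (43.4%) and 0 without either knockdown. The newer dispersion method called 0 circles and 0 host genes. The cause was not tested.

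The replicate number gave no pairing: deviations of same-numbered libraries correlated at r = 0.071 over 4944 circles with at least 40 counts. With the number as a replicate block, VPS13C was called (1.85, beside 3.65% of all host genes), as were 22 of 127 VPS13 circles (7.51% of all circles). By number, the ratio of the VPS13 share was 1.58 and 1.41.

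The VPS13 share ratio of 1.49 was 1.84 over circles of 1 gene. The mean number of circles was 27 higher in the knockdowns as found and 77.05 higher at equal depth over all circles, which leaves the larger VPS13 share in place. With a library left out the ratio ran from 1.37 to 1.63 and the difference from 1 to 53. Of the named circles, 4 whose groups overlap changed sign when a library was left out: chr9:77273280-77295846 ran from -0.95 to 0.025 (without control 1), chr1:12275825-12278038 from -0.69 to 0.28 (without knockdown 2), chr1:12318072-12322746 from -2.82 to 0.027 (without knockdown 1) and chr1:12299202-12308641 from -0.46 (without knockdown 2) to 0.86. Depth limits single circles: of the 720, 127 had enough counts to be fitted.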
